A study of Mus musculus with 12 samples.

Results

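The genes described here are 46 components of signalling from Toll-like, NOD, interleukin-1 and TNF receptors to the transcription factor NF-kB, followed across 4 groups of mice in sorted blood-forming stem cells. They were taken by name from the gene names on the array, which carries 96 probes for them among 56605 probes of 37074 gene names. Where a gene had several probes, the probe with the highest mean signal was used. Of the 46 genes, 43 had a probe well above background on 3 or more of the 12 arrays and were tested, among 33228 genes tested in all. By role the 43 are 7 receptors and co-receptors, 8 Toll and IL-1 adaptors and IRAK kinases, and 8 TRAF, RIP, TAK1 and IKK proteins. The others are 5 NF-kB subunits, 7 IkB proteins and inhibitors, and 8 cytokines and chemokines.

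Each array held RNA from the LSK SLAM cells of a single male mouse, sorted from bone marrow, and each group had 3 mice. The surface scheme behind that name marks long-term blood-forming stem cells. The first group was sham. The second received POL5551, which blocks the chemokine receptor CXCR4, by continuous infusion of 100 mg/kg per day for 14 days. The other two groups received G-CSF, the cytokine granulocyte colony-stimulating factor, at 100 ug/kg per injection every 12 h. Mice of the 2-day group had 4 injections, and those treated for 5 days had 9. As labelled, sham mice received no named injections, and surgery is not named for G-CSF mice. Both drugs are used to mobilize stem cells, that is, to send them from marrow to blood.

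Toll-like receptors sense microbial products and pass the signal through the adaptors MyD88 and TRIF, the IRAK kinases and TRAF6 to the kinase TAK1 and then the IKK complex. IKK marks the inhibitory IkB proteins for destruction, and NF-kB dimers then enter the nucleus and switch on inflammatory genes. Several of those genes, among them the ones for IkB-alpha and A20, encode inhibitors that close the loop. Blood-forming stem cells carry Toll-like and cytokine receptors of this kind.

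The consensus binding motif of NF-kB, read on both strands with overlapping matches joined into sites, was looked for in the 250 bases before each gene's start in RefSeq promoters of build GRCm38.p6. Promoter entries were matched for 36 of the 46 genes, and 15 of these (41.7%) held the motif, against 8.23% of the 27025 genes with an entry. The 15 were Cxcl1, Cxcl2, Il1r1, Il6, Irak1, Map3k7, Nfkb2, Nfkbia, Nfkbie, Nlrp3, Rel, Tank, Tnfaip3, Tnip1 and Traf3. Counted by promoter, the motif was in 21 of 52 promoters of these genes (40.4%) and in 2382 of 32851 promoters overall (7.25%). A match is a description of the letters and not a bound site. Stretches of 3 promoters are shown because these genes differed between treatments below and carry the motif, which is in capitals. They read 5′ to 3′ along the gene's strand. The Map3k7 stretch is at chr4:31963975-31964064 on the plus strand, and its motif begins 92 bases before the start. The Tnfaip3 stretch, at chr10:19015411-19015575 on the minus strand, holds a site 125 bases and another 12 bases before the start. The Tnip1 stretch, at chr11:54962947-54963038 on the minus strand, holds 3 overlapping matches, the first beginning 58 bases before the start.
Map3k7: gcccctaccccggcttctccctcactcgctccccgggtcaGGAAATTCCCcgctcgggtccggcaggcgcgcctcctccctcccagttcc
Tnfaip3: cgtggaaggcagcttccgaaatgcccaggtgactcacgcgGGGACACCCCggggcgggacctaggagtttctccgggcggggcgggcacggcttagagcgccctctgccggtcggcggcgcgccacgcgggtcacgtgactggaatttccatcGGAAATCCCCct
Tnip1: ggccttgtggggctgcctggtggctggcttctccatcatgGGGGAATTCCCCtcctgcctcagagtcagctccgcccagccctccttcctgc

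Levels below are log2 of the scanner's processed signal minus the 75th percentile of that signal on the same array, so a step of 1 is a doubling and 0 is the array's 75th percentile. The 75th percentile itself lay between 1638 and 5579 intensity units, and 75.3% to 85.6% of probes were well above background on an array. Probes for genes that belong to other tissues had a median level of -5.17 to -4.11 on the POL5551 arrays, -2.74 to -2.41 on the 2-day G-CSF arrays, -3.97 to -3.25 on the 5-day arrays, and -3.45, -3.30 and -1.61 on the sham arrays, where sham mouse 1 had the highest. Sham mouse 1 stood apart among these genes too: it was the lowest of the 12 arrays for 16 of the 43 and the highest for 9. Its distance from the mean of the other sham mice had a median of 0.87 over the 43 genes, against 0.31 between those other mice. Over all genes tested these medians were larger, at 1.07 and 0.45. It was lower than that mean by over 1 for 12 of the 43 and higher for 4, against 6030 lower and 11780 higher of all genes. The 3 arrays of 2-day G-CSF lay on a slide that held no other group, so that group and its slide cannot be told apart. Kit, one of the genes that define the sort, was between 2.61 and 3.22 on the 12 arrays. Ly6a was -1.84 in sham mouse 1 and -0.20 to 1.44 elsewhere. Slamf1, a SLAM family gene, was at -4.12, -0.96 and -1.41 in sham and -0.30, -1.27 and -0.34 after POL5551. After 2 days of G-CSF it was at -2.07, -1.39 and -2.11, and after 5 days at -0.635, -1.795 and -2.195. Procr and Cd34 were also lowest in sham mouse 1, at -0.08 and -0.82, while Cd48 was not. RNA came from whole sorted populations, so a change in the mix of cells and a change per cell cannot be told apart.

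None of the 43 genes tested differed from sham after either drug once p-values were adjusted over all genes, while 8 of them differed between POL5551 and 2 days of G-CSF. After POL5551 the A20 gene Tnfaip3, its partner Tnip1 and the IKK gene Ikbkb were higher than after 2 days of G-CSF. The TAK1 gene Map3k7, the NF-kB subunit gene Relb, Tnf, the TNF receptor gene Tnfrsf1b and the sensor gene Nod2 were lower. These 8 are 18.6% of the 43, whereas 30.6% of all genes tested differed in that comparison (limma, Benjamini-Hochberg adjusted p under 0.05). Higher calls were 6.98% of members against 5.87% of all genes, and lower calls 11.6% against 24.7%. The POL5551 mean of each of the 8 lay on the opposite side of the sham mean from the 2-day G-CSF mean. Choosing genes by a large difference between those 2 groups favours such a position, and its share among all called genes is not given here. All 8 calls were lost without POL5551 mouse 1, without 2-day mouse 1, or with the arrays' level of other-tissue genes as a covariate. Other probes of Map3k7, Tnfrsf1b and Ikbkb pointed the other way.

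**Figure D1:**
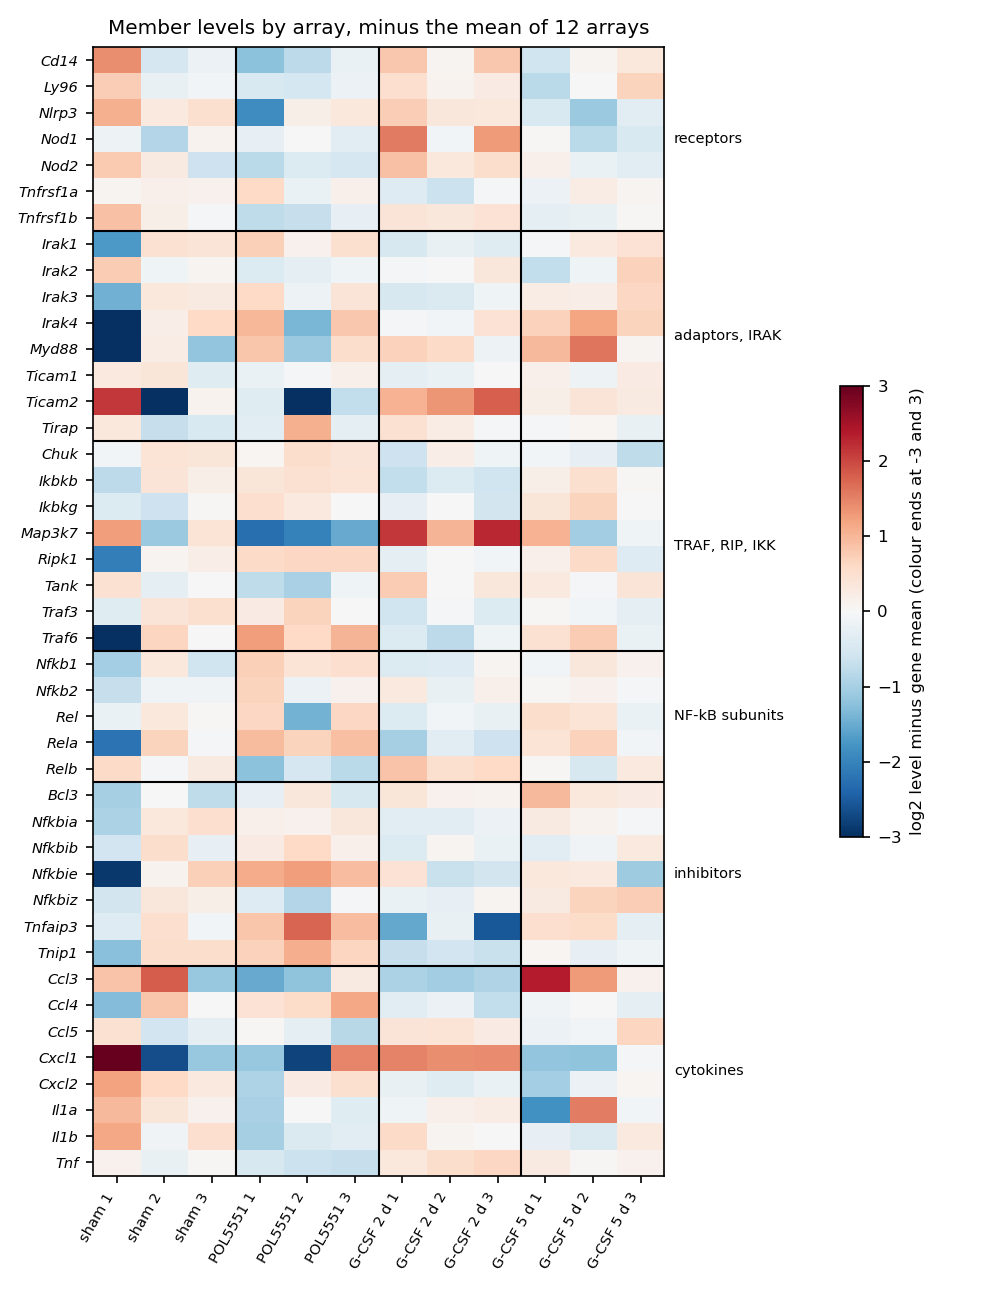
Level of the 43 tested genes on each of the 12 arrays (columns, by group and mouse) minus the gene's mean over the arrays, in log2 units, with rows grouped by role and colours ending at -3 and 3. Sham mouse 1 is the lowest array for 16 of the rows, and the Map3k7 row is lowest on the 3 POL5551 arrays.

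Receptors come first. The 8 receptor and co-receptor genes were Cd14 and Ly96, which help TLR4 bind lipopolysaccharide, Nod1, Nod2 and Nlrp3, which sense microbial or danger signals in the cytoplasm, the TNF receptors Tnfrsf1a and Tnfrsf1b, and the IL-1 receptor Il1r1. Tnfrsf1b had levels of 4.06, 3.35 and 3.14 in sham mice 1 to 3, 2.42, 2.48 and 2.92 after POL5551, 3.57, 3.50 and 3.60 after 2 days of G-CSF, and 2.89, 2.95 and 3.20 after 5 days. All POL5551 arrays lay below all sham and all 2-day arrays. The difference between POL5551 and 2-day G-CSF was -0.95 (SE 0.312, limma adjusted p = 0.0415), and that between POL5551 and sham was -0.91 (limma adjusted p = 0.0917), which did not pass.

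Nod2, a sensor of bacterial cell wall fragments, stood at -1.11, -1.63 and -2.51 in sham, -2.70, -2.29 and -2.38 after POL5551, -1.01, -1.58 and -1.37 after 2 days of G-CSF, and -1.74, -2.09 and -2.23 after 5 days. The 3 POL5551 arrays were below the 3 arrays of 2-day G-CSF, with a difference of -1.14 (SE 0.374, limma adjusted p = 0.0419), and the sham arrays spanned both. Nod1, the related sensor, was 4.01, 2.38 and 3.72 after 2 days of G-CSF, 2.31, 1.57 and 2.57 in sham, 2.21, 2.45 and 2.11 after POL5551, and 2.50, 1.64 and 2.00 after 5 days of G-CSF. In the 2-day group 2 of the 3 mice were above every other array, and the third overlapped them. The Nod1 difference between 2-day G-CSF and sham was 1.22 (SE 0.453, limma adjusted p = 0.478).

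The remaining receptor genes gave no call in any comparison. Cd14 ranged from -2.85 to -0.24, with POL5551 arrays at -2.85, -2.41 and -1.82 and 2-day G-CSF arrays at -0.82, -1.55 and -0.81, a difference of -1.30 (limma adjusted p = 0.0681). Nlrp3 was -1.62, -2.29 and -1.50 after 5 days of G-CSF and -0.11, -0.88 and -0.70 in sham, with no overlap and a difference of -1.24 (limma adjusted p = 0.423). All 7 tested receptor genes had a 5-day mean below sham, by 0.08 to 1.24 on the log2 scale, and none passed; of all genes tested, 42.5% had a 5-day mean above sham. With sham mouse 1 left out, 4 of the 7 were below sham; under quantile normalization 6 were, and under median scaling 5. Il1r1 was well above background on 2 arrays, both from the 5-day group, at -3.00 and -3.70, and was not tested.

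Among the adaptors, MyD88 carries the signal of nearly all Toll-like receptors and of the IL-1 receptor. Its gene Myd88 was at -6.10, -2.82 and -4.22 in sham, -2.20, -4.14 and -2.50 after POL5551, -2.35, -2.46 and -3.18 after 2 days of G-CSF, and -2.06, -1.42 and -2.95 after 5 days. Sham mouse 1 was the lowest array and was not well above background there, and every group overlapped the sham range. The difference from sham was 1.72 at 2 days (SE 0.778, limma adjusted p = 0.547) and 2.24 at 5 days (SE 0.778, limma adjusted p = 0.366). Without sham mouse 1 these Myd88 differences were 0.86 and 1.37.

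Ticam2 encodes TRAM, which couples TLR4 to TRIF. It was at -1.88, -7.01 and -3.89 in sham, -4.35, -7.11 and -4.73 after POL5551, -2.96, -2.67 and -2.19 after 2 days of G-CSF, and -3.81, -3.61 and -3.72 after 5 days. The 3 POL5551 arrays were below all G-CSF arrays, and the sham arrays spanned nearly the whole range. POL5551 mouse 2 and sham mouse 2 were not well above background. The POL5551 and 2-day means differed by -2.79 (SE 1.07, limma adjusted p = 0.0638), and by -1.93 without POL5551 mouse 2 (limma adjusted p = 0.192). The other Ticam2 probe, well above background on 6 arrays, differed by 0.03 (SE 0.701) between these groups. Ticam1, the TRIF gene, was the least variable of the 43, with a range of 0.71 over the 12 arrays. Irak4, the first kinase recruited by MyD88, was -1.50, -1.02 and -1.53 after 5 days of G-CSF, above the sham arrays at -6.24, -2.00 and -1.60, and the difference of 1.93 did not pass (limma adjusted p = 0.5). Sham mouse 1 was not well above background for Irak4, and without it the difference was 0.45. Tirap, Irak1, Irak2 and Irak3, the last an inhibitory member of the family, also gave no call, with ranges of 1.77, 2.44, 1.51 and 2.05 over the 12 arrays.

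Between adaptors and NF-kB stand TRAF6, RIP kinases, TAK1 and the IKK complex. Map3k7, which encodes TAK1, gave the largest difference of any member. The brightest Map3k7 probe was at 5.74, 3.36 and 4.89 in sham, 2.21, 2.46 and 2.97 after POL5551, 6.59, 5.49 and 6.74 after 2 days of G-CSF, and 5.53, 3.45 and 4.34 after 5 days. POL5551 arrays lay below every other array. The difference was -3.73 from 2-day G-CSF (SE 0.658, limma adjusted p = 0.0128) and -2.12 from sham (SE 0.658, limma adjusted p = 0.0783). POL5551 was lower than sham on both slides that held the 2 groups, by -3.53 on the first and -1.66 on the second. Map3k7 passed against sham where genes had to be well above background on all 12 arrays, and without sham mouse 2, where the Nfkb1 difference passed as well. Without sham mouse 2 these calls were 4.65% of the members tested, against 7.52% of all genes. The share of all genes under the filter on all 12 arrays is not given here.

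The other probes for Map3k7 did not follow the brightest. That probe lies at chr4:32068474-32068533 (build mm9, as the files annotate it). The other probes of the gene were also well above background on all 12 arrays, and their differences between POL5551 and 2-day G-CSF were 1.05 (SE 0.640) and 0.73 (SE 0.364), opposite in sign to -3.73. Neither of these passed when every probe was tested as its own feature, while the brightest did. Against sham the other probes were higher after POL5551, by 1.29 (SE 0.640) and 1.24 (SE 0.364), and no Map3k7 probe passed in that fit. What each probe detects was not tested.

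Ikbkb, which encodes the catalytic subunit IKK-beta, was at -0.13, 1.04 and 0.81 in sham, 1.02, 1.11 and 1.05 after POL5551, -0.08, 0.23 and 0.06 after 2 days of G-CSF, and 0.83, 1.12 and 0.68 after 5 days. The 2-day arrays lay below all POL5551 and all 5-day arrays. Its difference between POL5551 and 2-day G-CSF was 0.99 (SE 0.335, limma adjusted p = 0.0449), the weakest of the 8 calls. Of its 4 other probes, 3 had a negative difference, of -0.53 to -0.26, and 1 a positive difference of 0.48.

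The companion kinase subunit Chuk was at 0.61, 0.45 and -0.06 after 5 days of G-CSF, below the sham arrays at 0.62, 1.12 and 1.06, and the difference of -0.60 did not pass (limma adjusted p = 0.508). Ripk1, a kinase of the TNF receptor complex, was at 1.94, 1.97 and 1.99 after POL5551 and at -0.72, 1.46 and 1.57 in sham, a difference of 1.20 (limma adjusted p = 0.137) that was 2.66 on the first slide, with sham mouse 1, and 0.46 on the second. Traf6 had its lowest level in sham mouse 1, at -4.04, where it was not well above background, and -1.61 to 0.45 elsewhere. Ikbkg, Tank and Traf3 gave no call. Ripk2, the kinase of NOD receptors, was well above background on 2 arrays and was not tested.

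Of the 5 NF-kB subunit genes, Relb was called. It was at 1.67, 1.03 and 1.37 in sham, -0.14, 0.61 and 0.29 after POL5551, 1.95, 1.57 and 1.71 after 2 days of G-CSF, and 1.13, 0.61 and 1.38 after 5 days. POL5551 arrays were below all sham and 2-day arrays. The difference from 2-day G-CSF was -1.49 (SE 0.330, limma adjusted p = 0.0155), and the difference from sham, -1.11 (SE 0.330), had the smallest adjusted p of any member against sham, at 0.0737 in the limma fit. The other Relb probes differed between POL5551 and 2-day G-CSF by -0.53 and -0.02.

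RelB acts with p52, made from the Nfkb2 product p100, in the slower alternative arm of the pathway. RelA acts with p50, from Nfkb1, in the rapid arm. Rela was at -1.03, 1.84 and 1.14 in sham, 2.12, 1.85 and 2.09 after POL5551, 0.18, 0.83 and 0.55 after 2 days of G-CSF, and 1.60, 1.87 and 1.10 after 5 days. Its POL5551 arrays were above all sham and 2-day arrays, and the differences of 1.37 from sham (limma adjusted p = 0.133) and 1.50 from 2-day G-CSF (limma adjusted p = 0.0716) did not pass. Nfkb1 was also without overlap, at 2.03, 1.74 and 1.82 after POL5551 against 0.31, 1.64 and 0.73 in sham, a difference of 0.97 (limma adjusted p = 0.103). The Nfkb1 and Rela differences were smaller on the second slide, at 0.55 and 0.36, than on the first, at 1.72 and 3.15, where sham mouse 1 was the comparison. Nfkb2 and Rel gave no call in any comparison, with ranges of 1.35 and 2.05.

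The genes of IkB proteins and inhibitors held 2 of the 3 members that were higher after POL5551 than after 2 days of G-CSF. Tnfaip3 encodes A20, an enzyme that edits ubiquitin chains and ends NF-kB signalling. It was at -3.12, -2.24 and -2.83 in sham, -1.91, -0.98 and -1.82 after POL5551, -4.28, -2.95 and -5.29 after 2 days of G-CSF, and -2.23, -2.19 and -3.02 after 5 days. POL5551 arrays lay above every other array, and 2-day mouse 3, the lowest, was not well above background. The difference from 2-day G-CSF was 2.60 (SE 0.548, limma adjusted p = 0.0144), that from sham 1.16 (limma adjusted p = 0.151), and that between 5-day and 2-day G-CSF 1.69 (limma adjusted p = 0.25).

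Tnip1 encodes ABIN1, which binds A20. It was at 0.89, 2.67 and 2.67 in sham, 2.82, 3.23 and 2.78 after POL5551, 1.44, 1.55 and 1.47 after 2 days of G-CSF, and 2.19, 1.88 and 1.99 after 5 days. The 3 POL5551 arrays were above all others and the 2-day arrays were close together, above sham mouse 1 alone. POL5551 exceeded 2-day G-CSF by 1.46 (SE 0.439, limma adjusted p = 0.0327). Its other probe differed in the same direction, by 0.78 (SE 0.507), without passing, and Tnfaip3 has a single probe on the array.

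The genes of the IkB proteins, classical and atypical, gave no call. Nfkbia, which encodes IkB-alpha and is the classic early target of NF-kB, was at 1.45, 2.72 and 2.91 in sham, 2.55, 2.53 and 2.74 after POL5551, 2.08, 2.10 and 2.23 after 2 days of G-CSF, and 2.67, 2.50 and 2.36 after 5 days. The 2-day arrays were below the POL5551 and 5-day arrays, by means that differed by 0.47 and 0.37, neither past the threshold. Bcl3, an atypical IkB that works in the nucleus, was at -0.32, -0.97 and -1.03 after 5 days of G-CSF and -2.27, -1.27 and -2.04 in sham. Those groups did not overlap, and the difference of 1.09 had a limma adjusted p of 0.347. Nfkbie was at -5.71 in sham mouse 1, where it was not well above background, and -3.89 to -1.55 elsewhere. Nfkbib and Nfkbiz had ranges of 1.17 and 1.61.

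As a role, the 7 genes of IkB proteins and inhibitors each had a higher mean at 5 than at 2 days of G-CSF. The differences were 0.10 to 1.69, and none of them passed. The count was 7 of 7 under median scaling, quantile normalization, normexp with quantile normalization and the authors' values as well, and 2 of 7 where the off-tissue level of each array was a covariate. Over all genes tested, 39.0% had a higher mean at 5 than at 2 days. Against sham, 6 of the 7 were higher after POL5551, where 35.9% of all genes were, and 2 of the 7 with the off-tissue covariate.

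**Figure D2:**
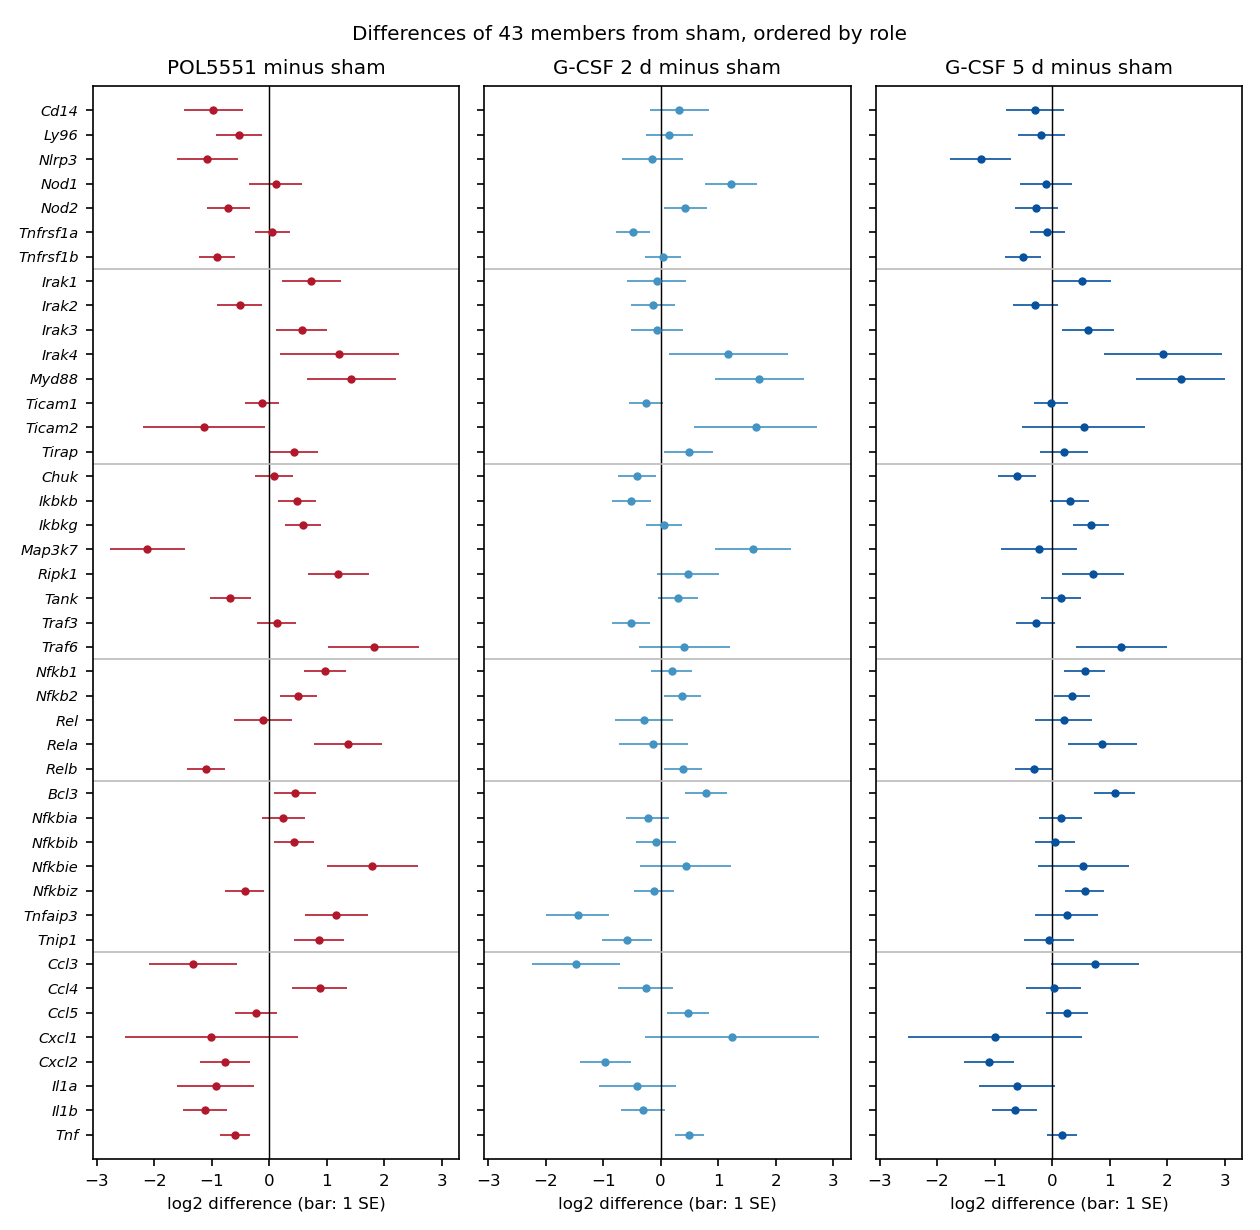
Difference from sham in log2 units (points, with 1 SE as the bar) for the 43 tested genes, in rows ordered by role, with a panel each for POL5551, 2-day G-CSF and 5-day G-CSF. None of the 43 passed the test in any panel, and the widest bars belong to Cxcl1, which was well above background on 6 of the 12 arrays.

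The cytokines and chemokines are products that NF-kB switches on, and of these TNF and interleukin-1 in turn act on receptors of the same pathway. Tnf was at -0.15, -0.52 and -0.25 in sham, -0.78, -0.94 and -0.99 after POL5551, 0.03, 0.23 and 0.33 after 2 days of G-CSF, and -0.02, -0.24 and -0.15 after 5 days. POL5551 arrays were below all others and 2-day arrays above all others. The difference between these groups was -1.10 (SE 0.259, limma adjusted p = 0.0180), with -0.60 for POL5551 against sham (limma adjusted p = 0.132) and 0.50 for 2-day G-CSF against sham (limma adjusted p = 0.595). The second Tnf probe differed by -0.26 between POL5551 and 2-day G-CSF.

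Il1b, the gene of interleukin-1 beta, was at -2.59, -2.03 and -1.92 after POL5551, below the sham arrays at -0.41, -1.69 and -1.08. The difference was -1.12 (SE 0.387, limma adjusted p = 0.0932), and -0.64 on the second slide alone. Cxcl2, a neutrophil attractant, was at -2.85, -3.45 and -3.75 in sham and lay lower without overlap after 2 days of G-CSF, at -4.28, -4.41 and -4.25, and after 5 days, at -5.09, -4.24 and -4.00. These differences, -0.96 and -1.09, did not pass (limma adjusted p = 0.548 and 0.401), and both use the same sham arrays.

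Ccl3, which attracts monocytes, was well above background on 3 arrays only, 1 sham and 2 of 5-day G-CSF, and on none of the POL5551 or 2-day arrays. Its measured levels were -5.01, -4.05 and -7.00 in sham, -7.37, -7.06 and -5.59 after POL5551, -6.82, -6.90 and -6.76 after 2 days of G-CSF, and -3.50, -4.58 and -5.73 after 5 days. The 5-day mean was at least 1.74-fold above POL5551 and at least 1.17-fold above 2-day G-CSF, bounds that set each dim array at the lowest signal well above background there or at its own value if higher, and neither comparison passed (limma adjusted p = 0.405 and 0.252). Cxcl1 had the widest range of the 43, 7.14, from -6.88 to 0.26 in sham mouse 1, and 4.25 without that mouse. Il1a, Ccl4 and Ccl5 gave no call, and Il6 was well above background on no array.

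Taken over the 8 cytokine genes, 7 had a lower mean after POL5551 than in sham, with a median difference of -0.85 beside -0.52 over all genes tested, of which 35.9% had a mean above sham. With sham mouse 1 left out 5 of the 8 were lower, and 5 with the off-tissue covariate. Macrophage and monocyte markers were present in every group: their summed level was 4.99 to 5.49 in sham, 4.93 to 5.20 after POL5551, 5.11 to 5.34 after 2 days of G-CSF and 4.78 to 5.15 after 5 days, and all 17 were above background on some array. Neutrophil markers summed to 2.16 to 3.28, 2.62 to 3.67, 2.51 to 3.21 and 3.13 to 3.58 in the same order. Other marker lists separated sham from POL5551. Dendritic cell markers summed to 5.44 to 6.28 in sham and 5.15 to 5.40 after POL5551, with 6 of 7 tested lower and 0 passing. T and NK cell markers summed to 1.74 to 2.34 in sham and 2.78 to 3.39 after POL5551. Yet 6 of the 7 tested were lower, 1 was higher, by 2.43, and 0 passed. Stromal and endothelial markers summed to 1.96 to 2.84 in sham and 3.48 to 5.17 after POL5551. Of these 10 markers 7 were higher, and 1, Pdgfrb, passed (limma adjusted p = 0.0337). Mast cell and basophil markers overlapped slightly, at 1.47 to 3.55 in sham and 0.575 to 1.63 after POL5551. Between POL5551 and 2-day G-CSF, 3 of 7 dendritic cell markers passed, all lower. Of all genes, 24.7% passed as lower and 5.87% as higher. Stem cell sort genes summed to 5.59 to 5.605 after POL5551 and 4.89 to 5.23 after 2 days. Of these 12 Tek passed, as higher. Mast cell and basophil markers summed to 0.575 to 1.63 and 2.575 to 2.73, with 2 of 5 passing as lower. B cell markers summed to 3.45 to 4.09 and 4.14 to 4.35, with 1 of 8 passing as higher and 3 as lower. T and NK cell markers summed to 2.78 to 3.39 and 2.58 to 2.63, with 2 of 7 passing as lower. Macrophage, neutrophil and stromal sums overlapped. The part of these cells in the values of the 43 genes was not tested.

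**Figure D3:**
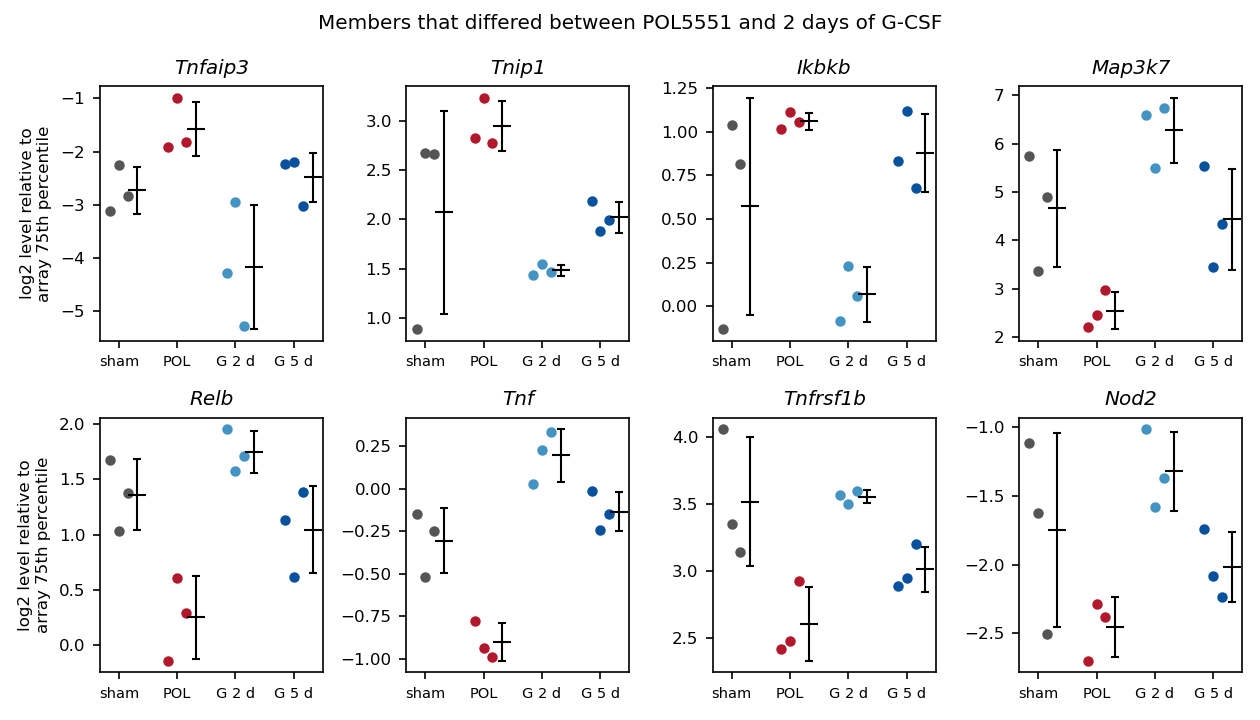
Levels of the 8 genes called between POL5551 and 2-day G-CSF on every array (points, by group), with the group mean and SD as the black bar, in log2 units relative to the array's 75th percentile; each panel has its own axis. In all 8 panels the POL5551 and 2-day points do not overlap, and sham points lie between or across them.

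The comparisons against sham were the ones that the design leads with. For POL5551, 0 of the 43 passed, where 2.25% of all genes did, and 10 of the 43 (23.3%) had an unadjusted p under 0.05, where 35% of all genes did. The groups did not overlap for 12 of the 43 (27.9%), against 36.4% of all genes. Higher were 6, Nfkb1, Nfkbie, Rela, Ripk1, Tnfaip3 and Tnip1 (14.0%, against 10.5% of all genes). Lower were 6 more, Il1a, Il1b, Map3k7, Relb, Tnf and Tnfrsf1b (14.0%, against 25.9%). All other probes of Map3k7, Ripk1, Tnf and Tnfrsf1b had the opposite sign against sham, while those of Il1b, Nfkb1, Rela, Relb and Tnip1 had the same sign. Of the 30 genes with more than 1 tested probe, 13 had a probe of opposite sign. On both slides that held sham and POL5551 mice the difference had the same sign for 31 of the 43. Each of these slides held a single POL5551 mouse, and the only sham mouse on the first was sham mouse 1. The share of all genes with the same sign is not given here. The median difference was 0.09 over the 43 genes and -0.52 over all genes tested.

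For 2 days of G-CSF against sham 0 of the 43 passed, with 0.0331% of all genes, and 5 of the 43 (11.6%) had an unadjusted p under 0.05, with 9.12% of all genes. The groups did not overlap for 4 of the 43, 9.30% against 12.1% of all genes. These were Bcl3 and Tnf, higher (4.65%, against 6.79% of all genes), and Cxcl2 and Tnfrsf1a, lower (4.65%, against 5.33%). For 5 days against sham 0 of the 43 passed, with 0.0662% of all genes, and 4 (9.30%) had an unadjusted p under 0.05, with 11.1%. Here 6 of the 43 did not overlap sham, 14.0% against 12.6% of all genes. They were Bcl3, Irak4 and Nfkb2, higher (6.98%, against 4.41%), and Chuk, Cxcl2 and Nlrp3, lower (6.98%, against 8.16%). The median differences were 0.04 at 2 days and 0.16 at 5 days, beside 0.10 and -0.13 over all genes. These comparisons share their sham arrays with each other and with the POL5551 comparison.

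Between 5 and 2 days of G-CSF 0 of the 43 passed and 0% of all genes did; 5 members, Ccl3, Ikbkb, Map3k7, Nod1 and Tnfaip3, had an unadjusted p under 0.05 in limma, 11.6% against 16.2% of all genes. The 2 time points did not overlap for 17 of the 43 (39.5%), against 35.3% of all genes, 10 of them higher at 5 days (23.3%, against 11.7%) and 7 lower (16.3%, against 23.6%). Between POL5551 and 5-day G-CSF 0 of the 43 passed, where 0.0602% of all genes did, and 6 (14.0%, against 11.7%) had an unadjusted p under 0.05. The groups did not overlap for 13 (30.2%, against 25.6%), 6 of them higher after POL5551 (14.0%, against 10.3%) and 7 lower (16.3%, against 15.3%). The F test over the 4 groups called 0 of the 43 and 1.34% of all genes, with 8 of the 43 (18.6%) and 34% of all genes at an unadjusted p under 0.05. Without sham mouse 1 it called 7 of the 43 (16.3%) and 23.1% of all genes.

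The 8 calls between POL5551 and 2-day G-CSF moved with the arrays in the fit. Between these groups 27 of the 43 did not overlap (62.8%, against 65.6% of all genes), 14 of them higher after POL5551 (32.6%, against 21.8%) and 13 lower (30.2%, against 43.9%). An unadjusted p under 0.05 was given to 14 of the 43 (32.6%, against 49%). The count of calls was 0 without POL5551 mouse 1, where 0.629% of all genes passed, and 0 without 2-day mouse 1, where 0.307% did. It was 2 without 2-day mouse 3 (4.65%, against 5.51% of all genes) and 4 without POL5551 mouse 2 (9.30%, against 18%). It was 5 (11.6%) without 2-day mouse 2, 5-day mouse 1 or 5-day mouse 2, against 15.5%, 25.9% and 26.4% of all genes. Without sham mouse 1, whose spread enters the shared error, it was 18 (41.9%, against 52.6%). With the off-tissue level as a covariate no gene of the 33228 passed and 0 of the 43 did. Median scaling in place of the 75th percentile called 9 (20.9%, against 25.6% of all genes), of which 7 were higher and 2 lower, against 3 higher and 5 lower, and moved the median of all genes from -0.65 to -0.20. The slide of the 2-day arrays cannot be told apart from their treatment, and the off-tissue level did not overlap between these groups.

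**Figure D4:**
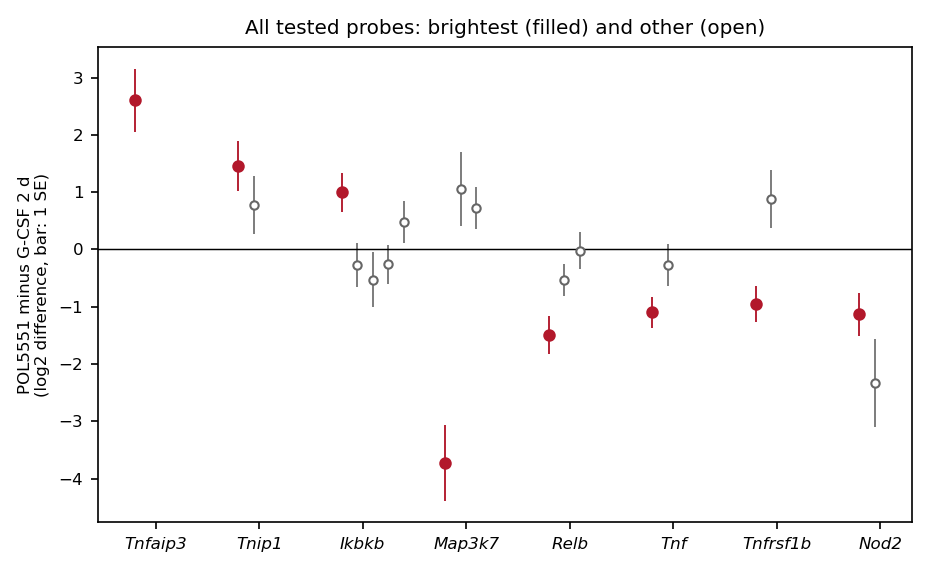
Difference between POL5551 and 2-day G-CSF in log2 units (points, with 1 SE as the bar) for every tested probe of the 8 called genes, with the brightest probe filled and other probes open. Other probes lie on the opposite side of 0 for Map3k7 and Tnfrsf1b and for 3 of the 4 of Ikbkb.

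Probes of a gene often disagreed. Of the 30 genes with more than 1 tested probe, 17 had all probes on the same side of 0 between POL5551 and 2-day G-CSF and 13 had a probe on the opposite side. For Tnfrsf1b the other probe gave 0.88 (SE 0.503) where the brightest gave -0.95. For Nod2 the other probe was also lower, by -2.34 (SE 0.769, limma adjusted p = 0.0486 with every probe as a feature). With every probe tested, 5 of the 8 brightest probes still passed: those of Map3k7, Relb, Tnf, Tnfaip3 and Tnip1. Probes other than the brightest also passed for Irak1 (1.48, limma adjusted p = 0.0442) and Il1b (-1.79, limma adjusted p = 0.0259). Traf6 had 2 such probes, of opposite sign, at 1.54 and -1.785 (limma adjusted p = 0.0413 and 0.0440).

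Other genes of the pathway were taken from lists of receptors, of adaptors and enzymes, and of NF-kB targets that hold none of the 46. Against sham, POL5551 raised Tlr12, from -6.21, -3.04 and -1.72 to 0.74, 1.52 and 0.02, a difference of 4.41 (SE 0.884, limma adjusted p = 0.0395). Sham mouse 1 was not well above background there, and without it the difference was 3.14 (limma adjusted p = 0.0494). Tlr12 senses profilin of parasites. The partner receptor gene Tlr11 was lower by at least 4.26-fold after POL5551 (limma adjusted p = 0.0230), with none of the 3 POL5551 arrays well above background. These were 2 of 25 receptor genes tested, where 2.25% of all genes passed. Of 40 adaptor and enzyme genes, Peli3, a ubiquitin ligase that acts on IRAK1, was lower by at least 6.07-fold (limma adjusted p = 0.0292), also with no POL5551 array well above background. With each of the 12 arrays left out in turn, Tlr12 passed in 5 fits (limma adjusted p from 0.0123 to 0.133) and was lost without POL5551 mouse 1 or 2, any 2-day mouse, or 5-day mouse 1 or 2. Tlr11 (0.0150 to 0.0957) and Peli3 (0.00725 to 0.114) each passed in 9 of the 12 fits and were lost without sham mouse 1 or POL5551 mouse 1 or 2. Of 27 target genes 0 passed. No gene of the 3 lists passed in limma for 2 or 5 days of G-CSF against sham.

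Between POL5551 and 2-day G-CSF the calls were 3 higher and 9 lower of 25 receptors, and 3 higher and 4 lower of 40 adaptors and enzymes. Of 27 targets 1 was higher and 2 were lower. Over all genes tested, 5.87% were called higher and 24.7% lower in that comparison. Il1rn, the natural antagonist of the IL-1 receptor, was at 0.53, 0.19 and 0.60 after POL5551 and 4.45, 2.38 and 4.09 after 2 days of G-CSF, a difference of -3.20 (limma adjusted p = 0.0165). Sod2, a mitochondrial enzyme induced by NF-kB, was higher by 1.51 (limma adjusted p = 0.0383). Tnip3, a relative of Tnip1, was higher as well, by 1.98 (limma adjusted p = 0.0136), and Tlr8, a sensor of RNA, was lower, with a difference of -2.56 (limma adjusted p = 0.0135). The slide and off-tissue limits of that comparison hold for these genes too.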

How the data were processed

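Gene expression was measured on 12 single-colour Agilent arrays, 3 mice in each of 4 groups. Per the labels, RNA was purified with a DNase step and the cDNA labelled with Cy5. Per the file headers, Agilent Feature Extraction 11.5.1.1 wrote the deposited intensity of each spot after background subtraction, with no normalization between arrays. The deposited value table of the authors also holds intensity values; how it was made is not given in the sources used here. Its columns follow the rank order of a scanner file of the same group, with other mouse numbers for POL5551 and for 5-day mice 2 and 3.

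Control spots and 60 to 267 outlier spots per array were left out, repeated spots averaged, and log2 values taken minus the array's 75th percentile. Genes well above background on at least 3 arrays were tested with limma 3.58.1 in R 4.3.3, with 4 group means and Benjamini-Hochberg adjustment over 33228 genes at a threshold of 0.05. The procedure was tested on simulated data. The number of arrays limits the precision. A random slide block gave a correlation of 0.0178. Replicate numbers did not pair mice across groups: deviations correlated -0.31 to 0.25 for equal numbers and -0.27 to 0.43 for others.

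The genes, lists and tests were chosen with earlier results of these data known. Values on all 12 arrays are given for called members and the 2 members of each role with the smallest F-test p. Others, Nfkbia among them, are examples named by their values. Promoter entries came from RefSeq (GRCm38.p6), and motif stretches are printed for the called members with a match. Alternatives covered normalization, background, scaling, the authors' values, dim-probe filters, probes, slide, off-tissue covariate, replicate block, groups in the fit and each array left out.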

Additional observations from a re-analysis of the deposited data

How the results depend on the processing

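The count of 8 members between POL5551 and 2-day G-CSF became 5 with quantile normalization, and 5 by the brightest probes with all probes kept. It was 0 with the off-tissue covariate, where 0% of all genes passed. With those 2 groups alone it was 18 (41.9%, against 50.9% of all genes). With each array left out it ran from 0 (against 0.629% or 0.307% of all genes) to 18 (41.9%, against 52.6%). With the replicate number as a block it was 6, and the block changed no other count except that of the F test, which went from 0 to 1. No member called between those groups reversed under any alternative, and Map3k7 kept its call in 20 of 23 alternatives, Relb in 19 of 23, Tnfaip3 in 19 of 22, Tnf in 18 of 23 and Tnip1 in 16 of 23, while Tnfrsf1b kept it in 10, Nod2 in 8 and Ikbkb in 7 of 23. For POL5551 against sham the count of 0 became 1 where genes had to be above background on all 12 arrays, and ran from 0 to 2 with each array left out. It was 2 without sham mouse 2 (4.65%, against 7.52% of all genes) and 0 without sham mouse 3, where 14.1% of all genes passed. The F test gave 1 with normexp and quantile normalization, 2 with genes above background on all 12 arrays, and 0 to 7 with each array left out. The median difference over the members moved with the scaling. For POL5551 against sham it was 0.49 with median scaling and -0.10 with the off-tissue covariate. For 5-day G-CSF against sham these were 0.31 and 0.0101. For 2-day G-CSF against sham the values ran from -0.16 to 0.14 with each array left out. Between 5 and 2 days it was 0.28 with quantile normalization, 0.32 with median scaling, 0.31 with the authors' values and -0.041 with the covariate. The cause of these shifts was not tested. A slide term could not be fitted for the 2-day group. Genes near background, such as Ccl3, Cxcl1, Il1r1, Ripk2 and Il6, limit what can be read of them.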
